A study of Mus musculus with 6 samples.

Results

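Potassium channel subunits were read from every probe set of the array whose single platform gene symbol begins with Kcn. There were 167 such probe sets for 84 genes, of 45037 probe sets and 18193 named genes in all. RNA of mouse cerebral cortex was hybridised to 6 Affymetrix arrays, 3 of tissue labelled double knockout for Egr1 and Egr3 and 3 labelled wild type. Both genes encode transcription factors with zinc fingers, made by neurons when they are active. The design sets cortical transcripts of the labelled genotypes against each other. The labels name no strain, age, sex, knockout allele, pooling or treatment, and nothing ties an array to an animal of its own, so p-values measure the spread between arrays.

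Potassium channels let potassium leave the cell, which returns the membrane to rest after an action potential and sets how easily a neuron fires. Pore-forming subunits assemble into voltage-gated, calcium- or sodium-activated, inwardly rectifying and leak channels, and auxiliary subunits change their traffic and gating. In cortex the voltage-gated families shape spike width and firing rate, the Kcnq channels carry the M-current, and the G protein-activated Kcnj channels answer inhibitory transmitters.

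The deposited values are linear signals, which the authors had summarised per probe set and scaled so that trimmed array means were equal. Differences below are of log2(signal + 16), double knockout label minus wild type, and they understate changes of dim probe sets. Probe sets were tested if their average log2 signal exceeded the array-wide median. Of the 167 Kcn probe sets 102, for 56 genes, were tested with limma, and 65 lay below this filter. The threshold was a Benjamini-Hochberg adjusted p of 0.05 over all 22518 tested probe sets. The brightness of a probe set depends on its probes as well as on the transcript. Words such as brightest therefore only tell the probe sets of a gene apart, and no transcript level is compared between probe sets.

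The label was checked first on the targeted genes. Egr3 read 339, 369.9 and 507 in the arrays labelled double knockout, against 1189, 2669.6 and 924 in wild type, and fell with the label (log2 -1.80, limma adjusted p = 0.0361). The Egr3 fall missed the threshold when wild type replicate 1 (0.0784) or any one array labelled double knockout (0.0932, 0.159 and 0.0845 for replicates 1, 2 and 3) was left out, and its adjusted p spanned 0.00846 to 0.249 over all settings. A second, dim Egr3 probe set below the filter was also lower without overlap (log2 -0.75, not tested). It read 21.3, 17.0 and 14.7 under the double knockout label, against 39.2, 44.7 and 37.1 in wild type. Egr1 read 2116, 2647 and 2657 in the arrays labelled double knockout, against 1247, 2054 and 1429.6 in wild type, so every array labelled double knockout lay above every wild type array (log2 0.67, limma adjusted p = 0.108). Without wild type replicate 2 the Egr1 difference was 0.87 and passed, and its adjusted p spanned 0.0172 to 0.442 over all settings. The title of double knockout replicate 1 lacks the knockout wording of the other two, and its description gives the group. The group is therefore named by its label. Where the probes of either gene lie relative to a deleted part was not given in the sources used here, and a probe set outside it checks nothing. Double knockout replicate 2 read as female, with an Xist signal of 3140 (12.6 to 42.5 on the other arrays) and a Y-linked Eif2s3y signal of 0.63 (383 to 609), and in wild type replicate 1 the spiked bacterial controls read 0.428 of the median array. The ratio of 3' to 5' Gapdh control probe sets, a sign of RNA quality, stood at 0.922, 0.950 and 0.881 under the double knockout label and at 0.842, 0.806 and 0.873 in wild type, without overlap. That of Actb overlapped, at 1.89, 1.68 and 1.75 under the double knockout label and 1.58, 1.67 and 1.95 in wild type. The summed signal of 6 neuron markers was 21397, 23554 and 22094 under the double knockout label and 17556, 19410.3 and 20362 in wild type, without overlap. None of these 6 passed the test and 4 differences were positive. That of 5 oligodendrocyte markers was 20883, 18283 and 19242 under the double knockout label and 15252, 16314 and 17672 in wild type, and that of 6 microglia markers 2480.3, 1983 and 2096 under the double knockout label and 3007, 2599 and 2576 in wild type. That of 5 pericyte and smooth muscle markers was 929, 1126 and 911 under the double knockout label and 1128, 1429 and 1503 in wild type. None of these 3 sums overlapped between the groups, no member passed, and all 6 microglia differences were negative. A sum is set mostly by the members with the highest signals. Of the oligodendrocyte markers 4 were positive and 1 negative. Mbp and Cnp were apart (log2 0.37 and 0.28), while Mobp, Mog and Mag overlapped. Mbp was only barely apart, with 9231 in double knockout replicate 3 and 9228 in wild type replicate 3. Of the 4 tested pericyte and smooth muscle markers 3 were negative. Rgs5, a pericyte marker, made up most of the pericyte and smooth muscle sum. It read 585, 726 and 546 under the double knockout label, against 749, 1069 and 1108 in wild type (log2 -0.63, limma adjusted p = 0.102). Abcc9 also lay lower without overlap (log2 -0.16), while Pdgfrb, Acta2 and Tagln overlapped and Acta2 was positive (log2 0.11). The part of these values in the results below was not tested.

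Kcnv1 fell and Kcnab3 rose in the arrays labelled double knockout, and no other Kcn gene passed the test. These were 3 of the 102 tested probe sets, 1 higher and 2 lower, a share of 2.94%. Over all tested probe sets 1.02% passed, 0.426% higher and 0.591% lower. Without double knockout replicate 2 none of the 102 passed in limma (18 at an unadjusted p under 0.05), without double knockout replicate 3 only 1 passed, and without wild type replicate 2 the count was 6. Without a correction 31 Kcn probe sets (30.4%) had a limma p under 0.05, against 16.6% of all tested probe sets. The groups did not overlap in 28 Kcn probe sets (27.5%), 16 with the double knockout label above and 12 below. Over all tested probe sets this share was 22.3%, with 11.5% above and 10.7% below. The median log2 difference of the tested Kcn probe sets was 0.05, against 0.01 over all, and 56 were positive and 46 negative (54.9% positive, against 51.6% of all tested probe sets). The median absolute difference was 0.235, against 0.154 over all. Probe sets of a gene may read the same transcripts and cannot be counted as independent.

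**Figure D1:**
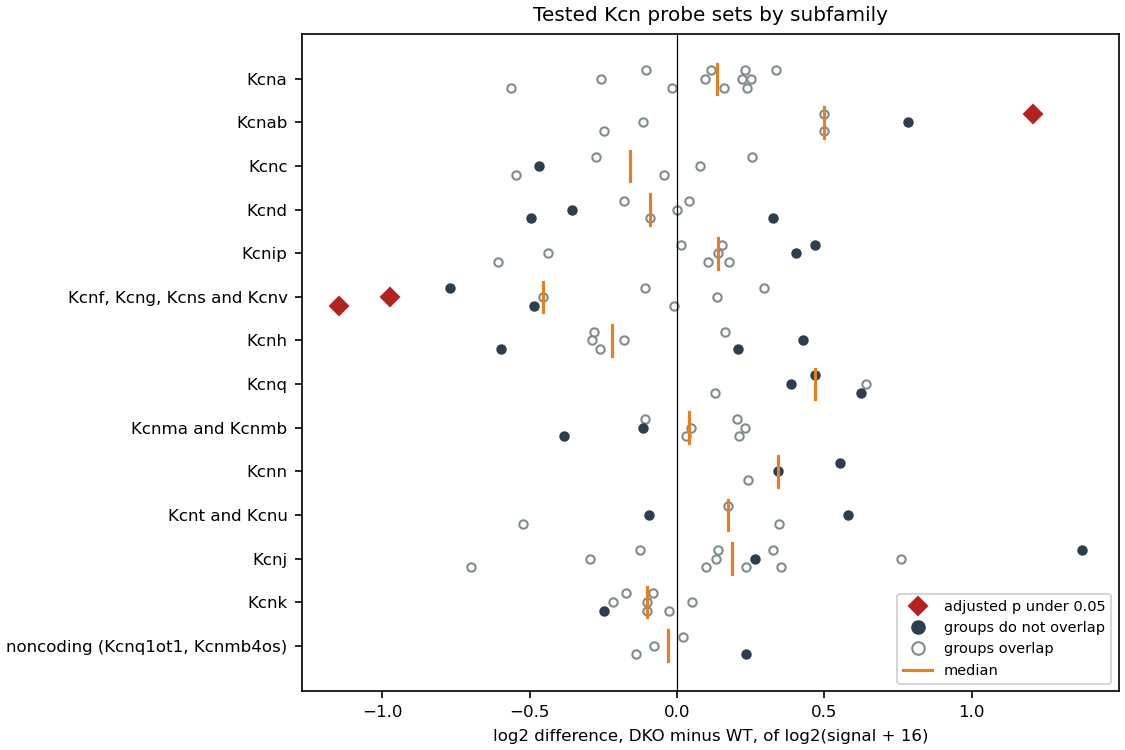
Log2 difference of each of the 102 tested Kcn probe sets (x axis, double knockout label, DKO, minus wild type, WT) by subfamily (y axis). Red diamonds passed an adjusted p of 0.05, filled circles have groups that do not overlap, open circles overlap, and orange lines are medians. The 2 called falls lie in the modifier row that holds Kcnv and the called rise in the Kcnab row, while all 5 Kcnq and all 3 Kcnn probe sets lie right of 0.

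Kcnv1 encodes a modifier subunit, which forms no channel alone and joins Kv2-type subunits. The Kcnv1 probe set with the largest difference read 135, 133 and 165 in the arrays labelled double knockout, against 351, 397 and 276 in wild type. Every array labelled double knockout lay below every wild type array, and the signal fell (log2 -1.15, SE 0.15, limma adjusted p = 0.00982). The brightest Kcnv1 probe set read 235, 165 and 174 under the double knockout label, against 339, 501 and 339.7 in wild type. It fell too (log2 -0.97, SE 0.18, limma adjusted p = 0.0389), again without overlap, and the wild type arrays spread more widely. The dimmest of the 3 read 77.2, 51.4 and 87.6 under the double knockout label, against 134, 171 and 98.8 in wild type. Its groups did not overlap either, but it did not pass (log2 -0.77, SE 0.22, limma adjusted p = 0.128). Over the other settings the largest Kcnv1 difference lay between -1.28 and -0.95, with an adjusted p of 0.00546 to 0.184, and it missed the threshold when double knockout replicate 2 was left out (0.0544). The brightest Kcnv1 probe set missed it when wild type replicate 1 (0.0749), double knockout replicate 2 (0.161) or double knockout replicate 3 (0.156) was left out, with an adjusted p of 0.0281 to 0.244.

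The other modifier genes gave no call in 6 further tested probe sets. Kcns2, a partner of Kv2-type channels, read 184, 192 and 126 under the double knockout label, against 222, 266 and 224 in wild type (log2 -0.48, limma adjusted p = 0.189). These values did not overlap, and double knockout replicate 3 was the lowest. Kcng1 read 111, 75.9 and 94.7 under the double knockout label, against 126, 78.6 and 230.4 in wild type (log2 -0.45, limma adjusted p = 0.474), with wild type replicate 3 far above the other arrays. Of the 9 tested probe sets of Kcnf, Kcng, Kcns and Kcnv genes 7 were negative, with a median of -0.45, and both probe sets of Kcnf1 were positive.

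Kcnab3 encodes a cytosolic beta subunit that attaches to Kv1-type channels. The dimmer of its probe sets read 119, 131 and 144 in the arrays labelled double knockout, against 57.4, 54.1 and 34.1 in wild type. All arrays labelled double knockout lay above all wild type arrays, and the signal rose (log2 1.21, SE 0.18, limma adjusted p = 0.0158). The brighter Kcnab3 probe set read 137, 177 and 152 under the double knockout label, against 112, 101 and 49.01 in wild type. Its groups were apart too, with wild type replicate 3 lowest, but it stayed above the threshold (log2 0.78, SE 0.24, adjusted p = 0.151). With each gene taken by its brightest tested probe set, 1 of 56 Kcn genes, Kcnv1, therefore passed, against 1.22% of all 11053 genes. The difference of the called probe set moved between 0.80 and 1.45 with the settings. It missed the threshold when double knockout replicate 2 (adjusted p = 0.0848) or 3 (0.0898) was left out, and the adjusted p spanned 0.00903 to 0.163.

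The other beta subunits did not pass. Kcnab2 read 888, 859 and 979 under the double knockout label, against 450.4, 917 and 624 in wild type (log2 0.50, limma adjusted p = 0.262). Wild type replicate 2 lay among the arrays labelled double knockout, and the other wild type arrays lay below them. A second Kcnab2 probe set also had wild type replicate 2 among the arrays labelled double knockout (log2 0.50, limma adjusted p = 0.221), and both passed without wild type replicate 2 (log2 0.76 and 0.71, adjusted p = 0.0391 and 0.048). Kcnab2 was picked out after its values were seen. The 2 Kcnab1 probe sets differed by -0.25 and -0.12.

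**Figure D2:**
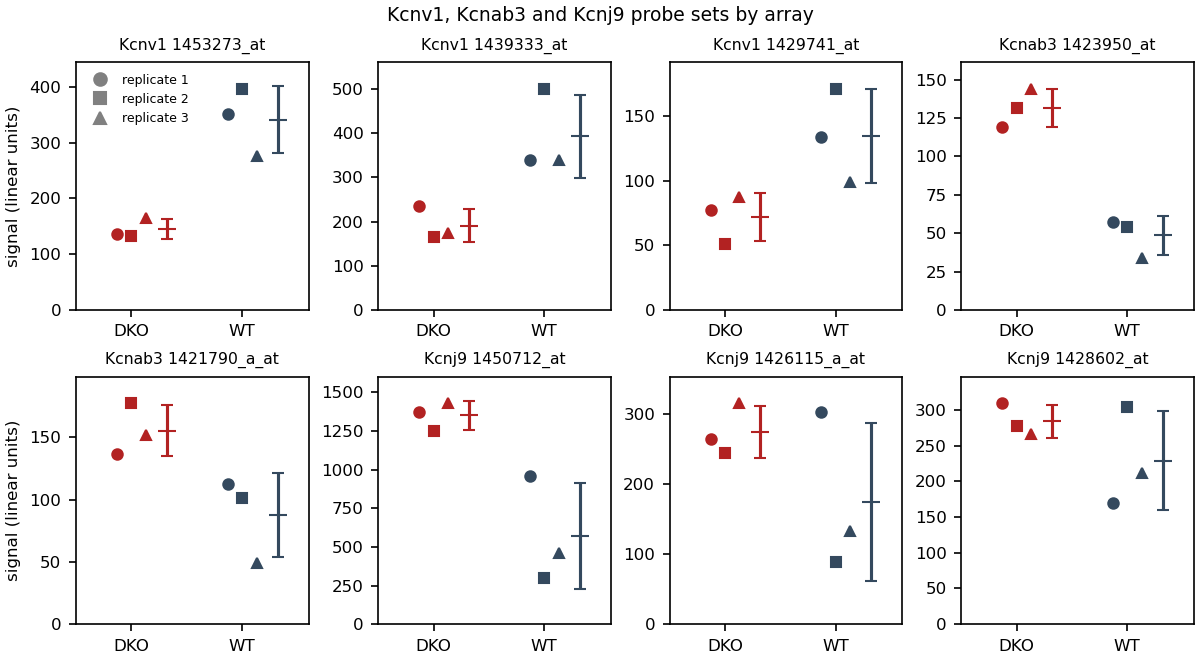
Signal in linear units (y axis, from 0) of each tested Kcnv1, Kcnab3 and Kcnj9 probe set in the 3 arrays labelled double knockout (DKO, red) and the 3 wild type arrays (WT, dark). Marker shape gives the replicate and bars the mean ± SD. All 3 Kcnv1 probe sets are lower and both Kcnab3 probe sets higher under the double knockout label without overlap, whereas in Kcnj9 wild type replicate 1 is high on 2 of 3 tested probe sets.

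Kv1-type pore subunits, which the beta subunits accompany and which sit along axons, did not pass in any of 12 tested probe sets. None had an unadjusted p under 0.05, none had groups apart, and the median difference was 0.14. Kcna1 differed by 0.23, 0.25 and 0.22 on its 3 tested probe sets, none past the threshold. The most distant values in the family were those of Kcna6, at 330.1, 223 and 249.7 under the double knockout label against 267, 159.5 and 203 in wild type (log2 0.34, limma adjusted p = 0.412), and of Kcna4. A second tested Kcna6 probe set differed by -0.02, and one below the filter by -0.46 without overlap, so the Kcna6 probe sets disagree. Kcna4, which carries an inactivating current, read 100.4, 36.7 and 85.01 under the double knockout label, against 87.4, 108 and 139.5 in wild type (log2 -0.56, limma adjusted p = 0.351). The low value of double knockout replicate 2 stood apart from the other 5 arrays.

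Kv3-type subunits let fast-spiking interneurons repolarise quickly, and none of 6 tested Kcnc probe sets passed, 2 positive and 4 negative. Kcnc1 read 390.0, 362 and 488 in the arrays labelled double knockout, against 649.8, 757 and 453 in wild type, on its brightest probe set (log2 -0.55, SE 0.18, limma adjusted p = 0.184). Wild type replicate 3 lay among the arrays labelled double knockout. A second Kcnc1 probe set read 69.9, 76.2 and 90.6 under the double knockout label, against 125, 121 and 100.4 in wild type, without overlap (log2 -0.47, limma adjusted p = 0.171). Another differed by 0.08, so the tested probe sets of Kcnc1 disagree. Kcnc2 read 584, 606 and 568 under the double knockout label, against 569, 853 and 740.5 in wild type (log2 -0.27, limma adjusted p = 0.363), with wild type replicate 1 at the level of the double knockout label. Pvalb, the calcium buffer that marks fast-spiking cells, read 619.6, 505 and 662 under the double knockout label and 672, 895 and 478 in wild type, with overlap (log2 -0.16). Of 4 tested fast-spiking and GABA markers none passed and 3 were negative. Tac1, on the same list, lay lower without overlap (log2 -0.46, limma adjusted p = 0.128). It read 290, 287.5 and 244 under the double knockout label, against 325, 419 and 406 in wild type. Gad1 and Gad2 overlapped (log2 0.01 and -0.08). The summed signal of all 5 listed markers was 4183, 3503 and 3831 under the double knockout label and 3463, 4669 and 4103 in wild type, with overlap, and its part in the Kcnc values was not tested. In whole tissue, fewer cells of a type and less RNA per cell cannot be told apart.

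Kv4-type subunits carry the A-type current of dendrites, and the Kcnip proteins are calcium sensors bound to them. Kcnd3 read 464, 414 and 477 in the arrays labelled double knockout, against 532, 701 and 706 in wild type. The groups did not overlap, and the difference did not pass (log2 -0.49, SE 0.13, limma adjusted p = 0.108). The other 2 tested Kcnd3 probe sets were also negative, at -0.36 and -0.18, and one below the filter was at 0.22 with overlap. Kcnd2, the related subunit, read 848, 929 and 860.1 under the double knockout label, against 813, 1005 and 829 in wild type, on its brightest probe set, with overlap, and a dimmer one differed by 0.33 without overlap (limma adjusted p = 0.239).

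Among the Kcnip genes none of 9 tested probe sets passed, and 7 were positive with a median of 0.14. Kcnip1 read 171, 211 and 183 under the double knockout label, against 154, 114 and 129 in wild type (log2 0.47, limma adjusted p = 0.16). Its groups did not overlap, but the second tested probe set differed by 0.01. Kcnip3, also known as the transcriptional repressor DREAM, read 200.4, 154 and 221 under the double knockout label, against 356, 375 and 195 in wild type (log2 -0.61, limma adjusted p = 0.224). Wild type replicate 3 lay among the arrays labelled double knockout, and without it the difference was -0.89 and passed (adjusted p = 0.0434, and up to 0.661 under other settings). The second Kcnip3 probe set showed the same order of arrays, with a difference of -0.44.

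Kcnq subunits form the M-channel, which acetylcholine closes. Kcnq3 read 1346, 1547 and 1513 in the arrays labelled double knockout, against 970.3, 1083 and 1120.4 in wild type. The groups did not overlap, but the difference missed the threshold (log2 0.47, SE 0.10, limma adjusted p = 0.0673, in a range of 0.0554 to 0.361 over the settings). A dim second Kcnq3 probe set was likewise apart, by 0.39. Kcnq5 read 397, 551 and 418 under the double knockout label, against 283, 373 and 222 in wild type (log2 0.63, SE 0.18, limma adjusted p = 0.139). A dimmer Kcnq5 probe set differed by 0.64 and passed without wild type replicate 2 (log2 0.99, adjusted p = 0.0333, and up to 0.699 under other settings), while the remaining one differed by 0.13. All 5 tested Kcnq probe sets were positive, with a median of 0.47, and 3 did not overlap (60%, against 22.3% of all tested probe sets).

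**Figure D3:**
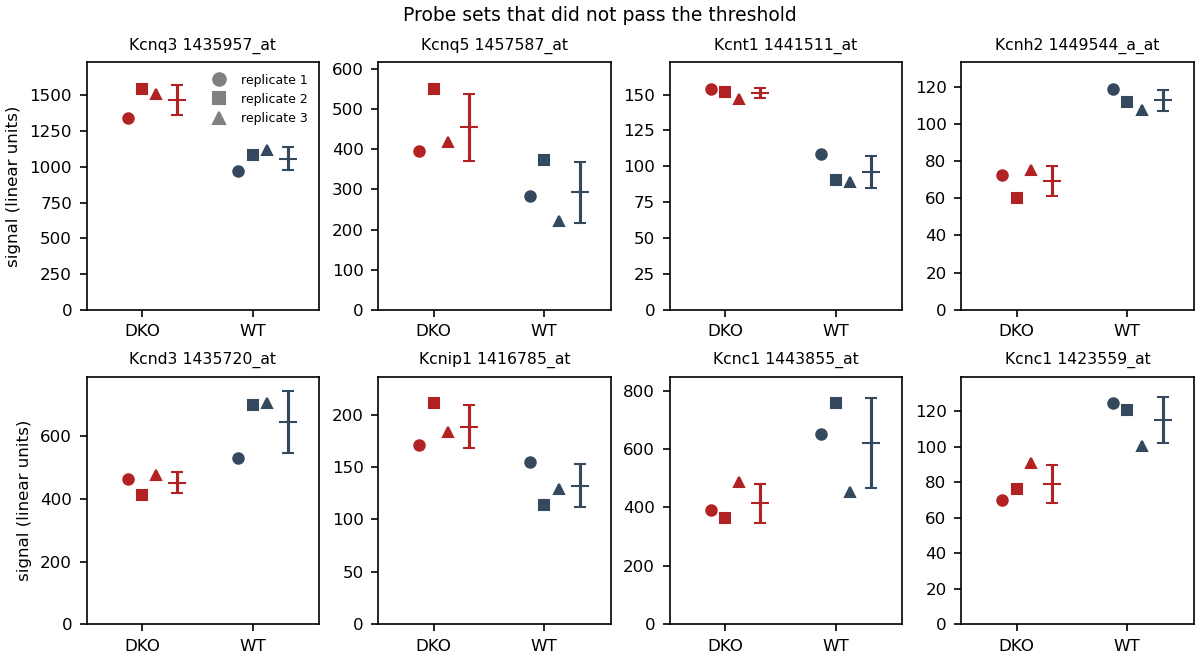
Signal in linear units (y axis, from 0) of 8 probe sets that did not pass, in the arrays labelled double knockout (DKO, red) and wild type (WT, dark). Marker shape gives the replicate and bars the mean ± SD. The groups are apart in 7 of the panels, and in the brighter Kcnc1 panel wild type replicate 3 lies within the double knockout values.

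The Kcnh genes encode channels of the ether-a-go-go class, and none of 8 tested probe sets passed, 3 positive and 5 negative. Kcnh2, the erg channel, read 72.6, 59.9 and 75.1 in the arrays labelled double knockout, against 119, 112 and 108 in wild type. Both groups were tight and apart, and the difference did not pass (log2 -0.60, SE 0.14, limma adjusted p = 0.0836, in a range of 0.076 to 0.375). Kcnh5 read 56.9, 64.9 and 47.3 under the double knockout label, against 42.8, 41.4 and 29.3 in wild type (log2 0.43, limma adjusted p = 0.261). Tested probe sets disagreed in sign for Kcnh1 (0.16 and -0.29) and for Kcnh3 (-0.28, -0.26 and 0.21).

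Calcium- and sodium-activated channels follow spikes with a hyperpolarisation. Kcnt1, the sodium-activated subunit Slack, read 154, 152 and 147 in the arrays labelled double knockout, against 109, 90.7 and 89.03 in wild type. The groups were apart, and the difference did not pass (log2 0.58, SE 0.13, limma adjusted p = 0.074). Of its other probe sets one differed by 0.34 with overlap, and the brightest read 315, 313 and 298 under the double knockout label, against 354, 321 and 319 in wild type, without overlap but in the other direction (log2 -0.10), so that the Kcnt1 probe sets disagree. Kcnu1, whose channel is known from sperm, read 39.6, 44.4 and 69.7 under the double knockout label, against 101, 77.8 and 61.8 in wild type (log2 -0.52, limma adjusted p = 0.257).

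The small-conductance subunits Kcnn1 and Kcnn2 were positive on all 3 tested probe sets. Kcnn2 read 293, 357 and 336 under the double knockout label, against 252, 245 and 268 in wild type, without overlap (log2 0.34, SE 0.11, limma adjusted p = 0.186). Kcnn1 read 77.6, 107 and 105 under the double knockout label, against 75.1, 64.7 and 44.4 in wild type (log2 0.55, limma adjusted p = 0.198), where double knockout replicate 1 lay next to wild type replicate 1. Kcnn2 and Kcnma1 lie on the chromosomes of Egr1 and Egr3 in the RefSeq gene table, as do Kcng2, Kcnk5 and Kcnk16, and Kcnv1 and Kcnab3 do not. Kcnma1, the pore of the large-conductance BK channel, had 5 tested probe sets between -0.38 and 0.21. The most distant read 121, 112 and 72.8 under the double knockout label, against 126, 151 and 130.0 in wild type (limma adjusted p = 0.318). Kcnmb4, the BK beta subunit of neurons, read 1081, 1187 and 1125 under the double knockout label, against 1088, 907 and 895 in wild type (log2 0.23, limma adjusted p = 0.315), with wild type replicate 1 among the arrays labelled double knockout.

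Inward rectifiers of the Kcnj genes hold the resting potential, and Kcnj3, Kcnj5, Kcnj6 and Kcnj9 form the G protein-activated channels. None of 12 tested Kcnj probe sets passed, and 9 were positive with a median of 0.19. Kcnj9 had the largest difference of all tested Kcn probe sets. It read 1371, 1251 and 1431 in the arrays labelled double knockout, against 958, 301 and 459 in wild type. The groups did not overlap, but wild type replicate 1 stood far above the other wild type arrays, and the difference did not pass (log2 1.37, SE 0.31, limma adjusted p = 0.0754). Without wild type replicate 1 it was 1.82 and passed (adjusted p = 0.0087, and up to 0.245 under other settings). A second Kcnj9 probe set read 265, 245 and 316 under the double knockout label, against 303, 89.5 and 133 in wild type, and repeated the high wild type replicate 1 (log2 0.76, limma adjusted p = 0.277). It too passed without that array (log2 1.21, adjusted p = 0.0442). On its remaining tested probe set, 309.9, 277 and 266 under the double knockout label against 170.1, 305 and 212 in wild type, replicate 1 was instead the lowest wild type array (log2 0.33). Kcnj3, the channel partner, was positive by 0.10 to 0.35 on 3 tested probe sets, and the Kcnj5 and Kcnj6 probe sets lay below the filter.

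**Figure D4:**
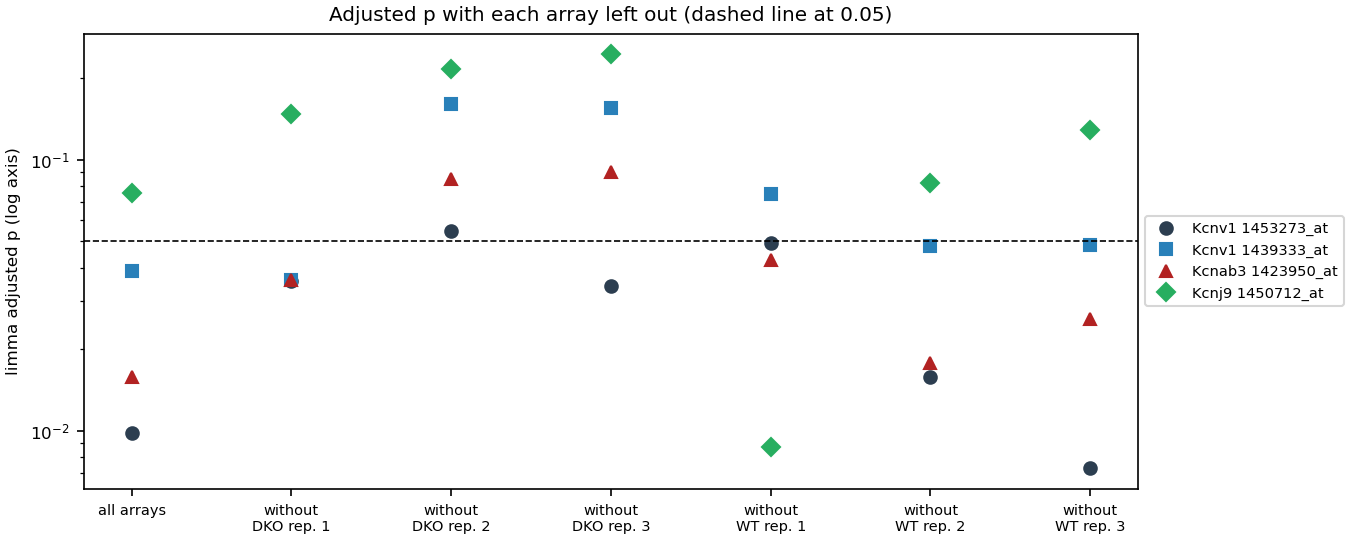
Limma adjusted p (y axis, log scale) of 4 probe sets with all 6 arrays and with each array left out in turn (x axis, DKO the double knockout label and WT wild type). The dashed line marks 0.05. The Kcnv1 probe set with the largest difference crosses the line without double knockout replicate 2, Kcnab3 without double knockout replicates 2 or 3, and Kcnj9 lies below it only without wild type replicate 1.

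Some Kcnj genes mark glia and other cells. Kcnj10, which clears potassium in astrocytes, read 446, 314 and 401 in the arrays labelled double knockout, against 525, 253 and 315 in wild type (log2 0.13, limma adjusted p = 0.818). Its sign turned without wild type replicate 2 (log2 -0.085). Its partner Kcnj16 differed by -0.30 and -0.13 on 2 probe sets, neither past the threshold. Of 6 astrocyte markers Aqp4, the water channel of astrocyte endfeet, fell, at 592, 392 and 499.8 under the double knockout label against 970.0, 972 and 958 in wild type (log2 -0.96, limma adjusted p = 0.0139), and the other 5 stayed above the threshold. Of the 6 differences 4 were negative and 2 positive, those of Slc1a3 (log2 0.38, without overlap) and Slc1a2 (log2 0.23, with overlap). Gfap also lay lower without overlap (log2 -0.83, limma adjusted p = 0.258). It read 553, 193 and 596 under the double knockout label, against 775, 609 and 806 in wild type, with double knockout replicate 2 lowest. Aldh1l1 and Gja1 overlapped. Aqp4 missed the threshold when wild type replicate 1 (adjusted p = 0.0568) or double knockout replicate 3 (0.067) was left out, and its adjusted p spanned 0.00759 to 0.155. The summed signal of the 6 was 10940.4, 11105 and 11076 under the double knockout label and 9935, 10456 and 11709.9 in wild type, with overlap. Kcnj8, of pericytes, lay below the filter, at 34.4, 36.04 and 15.8 under the double knockout label and 39.6, 30.3 and 27.97 in wild type.

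Kcnj13 and Kcne2, channel subunits of the choroid plexus epithelium, were high in 1 array alone. Kcnj13 read 75.1, 28.1 and 53.1 in the arrays labelled double knockout, against 45.95, 48.4 and 281 in wild type (log2 -0.70, limma adjusted p = 0.547). Kcne2, below the filter, read 4.65, 0.847 and 1.72 under the double knockout label, against 6.18, 0.454 and 76.8 in wild type. Wild type replicate 3 held the high value of both, and without it the Kcnj13 difference was 0.05. Choroid plexus markers were high there too. Otx2, a transcription factor of that epithelium, read 1.05, 0.517 and 1.01 under the double knockout label, against 0.604, 0.647 and 60.4 in wild type, and the folate receptor Folr1 read 29.8, 31.6 and 16.3 under the double knockout label and 30.4, 12.8 and 245 in wild type. Otx2 read at most 1.05 on the other 5 arrays. Ttr, the secreted thyroid hormone carrier, was high also in double knockout replicate 1, at 4697, 37.5 and 34.6 under the double knockout label and 71.01, 375 and 10347 in wild type. The summed signal of the 6 markers was 4792, 124 and 114 under the double knockout label and 162, 439 and 10980.4 in wild type. Their part in the other results was not tested.

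**Figure D5:**
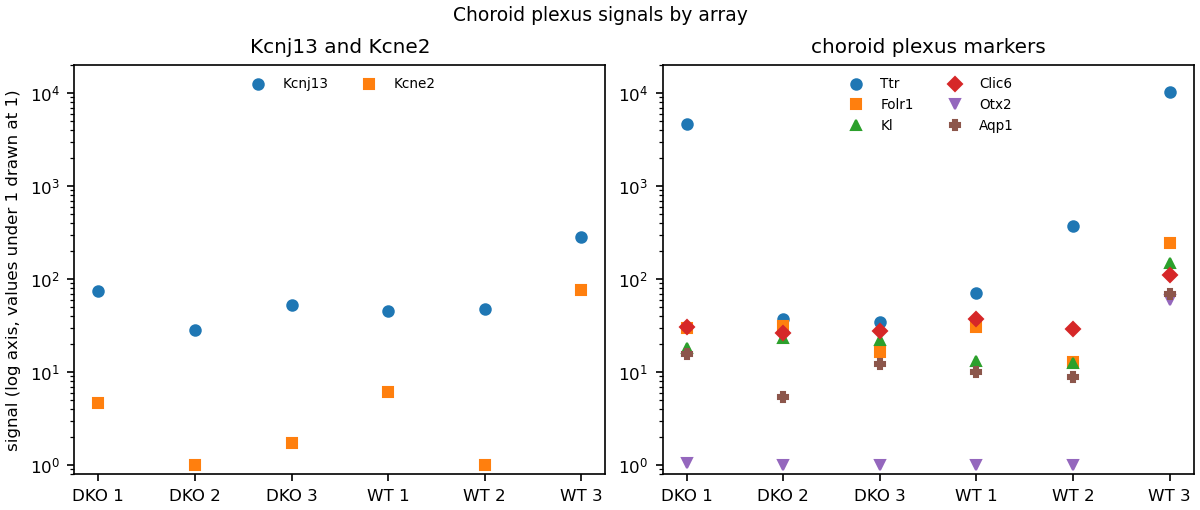
Signal on a log axis of Kcnj13 and Kcne2 (left) and of 6 choroid plexus markers (right) in each array, DKO being the double knockout label and WT wild type, with values under 1 drawn at 1. Wild type replicate 3 holds the highest value of each of the 8 probe sets, and Ttr is high in double knockout replicate 1 as well.

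Tandem pore-domain channels of the Kcnk genes carry leak currents. None of 8 tested probe sets passed or had an unadjusted p under 0.05, and 7 were negative within a range of -0.25 to 0.05. Kcnk1 read 1437, 1507 and 1571 under the double knockout label, against 1749, 1788 and 1346 in wild type, on its brightest probe set, with wild type replicate 3 the lowest array. Its other probe set differed by -0.22, and Kcnk10 by -0.25 (limma adjusted p = 0.518). Of the long noncoding RNAs with a Kcn symbol, Kcnq1ot1, the antisense transcript of an imprinted cluster, differed by -0.14, -0.08 and 0.02 on its tested probe sets, and the first turned to 0.06 without wild type replicate 2. Kcnmb4os2, named as an opposite-strand transcript of Kcnmb4, read 100.3, 95.96 and 87.3 under the double knockout label, against 83.6, 70.1 and 80.4 in wild type (log2 0.23, limma adjusted p = 0.435).

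The 65 probe sets below the filter included every probe set of 28 genes, among them all 5 Kcne genes, and in 54 of them the groups overlapped. The share with overlap over all probe sets below the filter was not counted, so this count has no background beside it. Their signals lay between 0.267 and 76.8. Besides Kcne2 the largest differences were those of Kcnj12, a strong inward rectifier, and of a dim Kcnq1ot1 probe set. Kcnj12 read 24.8, 6.26 and 11.8 under the double knockout label, against 35.02, 42.7 and 30.3 in wild type, without overlap (log2 -0.82, not tested). This Kcnq1ot1 probe set read 2.47, 2.76 and 1.86 under the double knockout label, against 9.92, 15.2 and 8.37 in wild type (log2 -0.56, not tested). With 16 added, the log2 difference understates a change at signals this low. Another Kcnq1ot1 probe set below the filter went the other way, also without overlap. It read 48.1, 35.7 and 30.5 under the double knockout label, against 18.8, 22.1 and 24.5 in wild type (log2 0.51, not tested), so these probe sets disagree. Of the 30 Kcn genes with more than 1 tested probe set, the differences had 1 sign in 21 and mixed signs in 9.

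Proteins that anchor or accompany potassium channels were followed beside them, and 21 of 25 listed genes had a probe set. Of 18 tested, Akap5, a scaffold that brings kinases to channels and receptors, fell and 17 did not pass, while 1.22% of all genes passed by their brightest tested probe set. Akap5 read 239.8, 277 and 213 in the arrays labelled double knockout, against 408, 455 and 352 in wild type, without overlap (log2 -0.70, SE 0.13, limma adjusted p = 0.0454). Akap5 missed the threshold when double knockout replicate 1 (0.109), 2 (0.0939) or 3 (0.19) or wild type replicate 1 (0.102) or 2 (0.0706) was left out, and its adjusted p spanned 0.033 to 0.215. The median of the list was -0.07, against 0.01 over all tested probe sets, with 7 positive and 11 negative. The groups did not overlap in 7 of the 18, against 22.3% of all tested probe sets. Abcc8, Dlg2, Adam23 and Ank3 lay higher under the double knockout label, and Akap5, Abcc9 and Vapb lower.

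Promoter windows from 250 bases before to 50 after the gene start were read from a table made from RefSeq (GRCm38.p6), in which 64 of the 84 Kcn genes matched. Windows of Kcnab3 and Kcnv1 were not analysed here. The letters GCGTGGGCG and GCGGGGGCG, the consensus bound by Egr proteins, were searched on both strands. Of the 64 genes 3 (4.69%) held a match, against 3.93% of all 27025 genes with a window. The 3 are shown because they are the Kcn genes of the array whose windows hold the Egr letters. The stretches around the match run 5′ to 3′ on the strand of the gene, with the match in capitals, as CGCCCCCGC where it lies on the other strand.
Kcnt2, chr1:140245666-140245725, plus strand: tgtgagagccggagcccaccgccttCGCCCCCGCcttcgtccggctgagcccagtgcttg
Kcnk2, chr1:189343486-189343545, minus strand: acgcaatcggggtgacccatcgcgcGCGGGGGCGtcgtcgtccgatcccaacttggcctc
Kcna4, chr2:107290563-107290622, plus strand: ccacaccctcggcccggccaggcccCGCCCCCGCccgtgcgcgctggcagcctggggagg

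None of these genes passed the test. Kcnt2, a sodium-activated subunit, read 281, 325 and 268 in the arrays labelled double knockout, against 258, 309.6 and 209 in wild type (log2 0.17, limma adjusted p = 0.605). Kcnk2, a mechanically gated leak channel, read 498, 422 and 476 under the double knockout label, against 392, 548 and 493 in wild type (log2 -0.03, limma adjusted p = 0.95). In both the groups overlapped, as they did in Kcna4 above. A match of letters is a description and names no binding site.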

How the data were processed

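Array values of 6 cortical RNA samples, 3 labelled Egr1 and Egr3 double knockout and 3 wild type by their descriptions, were used as deposited. They are linear probe set intensity signals that the authors summarised and scaled, judged from the values, since the 2% trimmed mean of each array was 150.0. The software, settings and build behind them are not given in the sources used here. Array medians were 36.2 to 39.5. Precision is limited by the number of arrays. Genes were named from the platform annotation, and all 167 Kcn symbols matched the RefSeq gene table (GRCm38.p6) by gene number. That table served for names and neighbouring genes.

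Signals under 1 were set to 1 before log2(signal + 16), control probe sets were left out, and limma 3.58.1 in R 4.3.3 (lmFit, eBayes with an intensity trend) fitted group on 22518 probe sets. Benjamini-Hochberg adjustment ran over all of them, on two-sided p-values. An exact permutation test of 3 against 3 cannot go below 0.1 and was not used. Simulated data had 200 of 22518 probe sets changed in each of 10 draws, with normal noise drawn independently for each probe set and array. The limma step recovered 7.2%, 64%, 90.2% and 97.2% of changes of 0.5, 1, 1.5 and 2 on the log2 scale, and 3.87% of its calls were false. Differences that many probe sets of an array share were not simulated, so these shares need not hold for the real arrays.

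Members and lists were chosen with earlier results of these data known. Named were all Kcn probe sets past the threshold, the 10 next by p, the 2 largest differences of each subfamily, the 3 largest below the filter, all probe sets of a called gene, subunits that mark a cell type, and called partner and marker genes. Beyond that rule Kcnab2, second probe sets of named genes and some partner and marker genes without a call were named. Alternatives were the pseudocounts 1 and 64, other scalings, filters, variance models and weights, left-out arrays, the replicate number as a block and a threshold of 0.1. Lists of endothelial, striatal, hippocampal and thalamic markers held 0 called genes, as did those of neurons, interneurons, oligodendrocytes, microglia, pericytes and choroid plexus. Python 3.11.15 with matplotlib 3.10.9 drew the figures.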

Additional observations from a re-analysis of the deposited data

How the results depend on the processing

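The 3 Kcn calls in limma became 0 with no filter (29 at an unadjusted p under 0.05), 0 without the pair of doubted arrays, wild type replicate 1 and double knockout replicate 2 (18 unadjusted), and 7 at an adjusted p of 0.1. They ranged from 0 (without double knockout replicate 2, 18 unadjusted) to 6 (without wild type replicate 2) over the fits that left out 1 array, with 1 without double knockout replicate 3. The 229 calls over all probe sets became 10 with no filter, 131 with no intensity trend, 12 without both doubted arrays and 586 at an adjusted p of 0.1, and ranged from 34 to 292 with 1 array left out. By the brightest probe set, the 1 Kcn gene became 2 with array weights, 2 with the replicate block and 2 by the mean over probe sets. It became 0 with no filter, no intensity trend (13 and 14 unadjusted) or without both doubted arrays (13), and ranged from 0 to 2 with 1 array left out. The 1 partner gene became 0 with quantile normalization, no filter, no intensity trend or without both doubted arrays (8, 7, 9 and 6 probe sets unadjusted), and ranged from 0 to 1 with 1 array left out.

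With arrays left out, the log2 difference ranged from -0.085 to 0.556 for Kcnj10, from -1.08 to 0.0475 for Kcnj13 and from -0.299 to 0.0636 for Kcnq1ot1, and the sign turned for Kcnj10 and Kcnq1ot1 without wild type replicate 2 and for Kcnj13 without wild type replicate 3. Of the other values of named probe sets 616 kept direction and side of the threshold, 34 lost the call and 7 gained one. The cause was not tested. Kcnab3 was not tested under the stricter filter, which its dim probe sets did not reach. Both scalings left 57 Kcn probe sets positive and 45 negative. Same-numbered arrays did not deviate together (r = -0.147, 0.001 and -0.101). These deviations are from group means of 3 arrays, so they cannot decide whether the numbers pair the arrays. With the replicate block 4 Kcn probe sets and 182 of all probe sets passed. Kcnj9 was the added call (adjusted p = 0.0326), as with array weights (0.0497).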
